A study of Sus scrofa with 8 samples.

Results

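The genes described here act at the wall of the blood vessel, in the endothelial lining itself or in the control of clotting on it: TFPI, PECAM1, VWF, CDH5, THBD, PLAT, PLAU, NOS3 and VEGFA. They were measured in testis RNA of 8 Large White boars on one-colour Agilent porcine arrays. A probe was taken for a gene if its RefSeq accession matched that symbol or if the study's supplementary list of diet-associated probes named it so. By this rule 12 of the 43603 probes belonged to 7 of the 9 genes, and no probe of VWF or THBD was found by it. All 12 probes were present, each as 1 spot on an array. The question was whether TFPI, a clotting inhibitor in the study's list, moved between diets together with the other genes of the vessel wall.

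The supplemented group held 4 boars that were fed added methylating micronutrients, namely methionine, choline, betaine, vitamin B6, vitamin B12 and folate, from month 1 to month 10 of age. The 4 control boars received the standard feed over the same ages. The labels give all 8 animals as males of the founder generation, and RNA was from testis tissue. The boars are numbered 1 to 4 within each diet. Supplemented boars 1 and 2 and control boars 1 and 2 were brothers of 1 litter and lay on slide 1, whereas boars 3 and 4 of each diet came from the study's other litters and lay on slide 2. The litter of brothers and slide 1 therefore cannot be told apart, and the other 4 boars are not a single litter. The supplemented boars took places 1 and 3 of both slides and the control boars places 2 and 4, so neither can diet and place on the slide.

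The median signal of an array ran from 108 to 192.5 and was 4.91 to 7.40 times its background. The share of spots well above background was 76.3% to 86.5%, and no spot was saturated. Markers of the tissue were present: all 11 probes of Leydig cell genes, all 11 of Sertoli cell genes and all 6 of germ cell genes. Of the endothelial markers, 22 of 23 probes from 17 genes were present, PECAM1 and CDH5 among them.

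Endothelial cells line every vessel and keep blood fluid by opposing clot formation and by starting clot removal. TFPI, the tissue factor pathway inhibitor, is a Kunitz-type protein that blocks factor Xa and the complex of tissue factor with factor VIIa, the trigger of clotting, and endothelium is its main source. PECAM1 and CDH5 (VE-cadherin) join endothelial cells at their borders. PLAT and PLAU are the tissue-type and urokinase-type plasminogen activators, which convert plasminogen to the fibrin-degrading enzyme plasmin. NOS3 makes nitric oxide, which relaxes vessels and restrains platelets, and VEGFA is the main growth factor for vessels. In the testis the vessels run in the interstitium between the seminiferous tubules, beside the Leydig cells.

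The study's list named 1 probe of TFPI and 1 of the 2 probes of VEGFA. Both had been selected on the comparison of these diets in these boars, so their diet differences are given as a description, without a test, and are left out of all counts of the other 10 probes. Their target sequences are shown because these 2 probes are those of the 9 genes that the list holds. Each is 60 bases long with 27 G or C, which is 45%, and the letters carry no mark. They read as follows.
TFPI A_72_P029441: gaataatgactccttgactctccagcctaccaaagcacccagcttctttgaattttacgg
VEGFA A_72_P116846: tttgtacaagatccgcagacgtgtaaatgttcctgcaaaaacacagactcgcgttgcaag

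TFPI was lower in every supplemented boar than in any control boar. On the log2 scale its quantile-normalized signal was 8.13, 8.24, 8.51 and 8.09 in supplemented boars 1 to 4. In control boars 1 to 4 it was 9.16, 8.87, 9.04 and 9.26. The groups did not overlap, with supplemented boar 3 the highest of its diet and control boar 2 the lowest. The means were 8.24 ± 0.19 and 9.09 ± 0.17 (SD, n = 4 each). The difference of -0.84 corresponds to a 1.79-fold lower signal on the supplemented diet. Of all present probes, 0.635% were lower in this non-overlapping way, a share from which nothing is read here because the gene had been chosen for this contrast. The probe was well above background on all 8 arrays, its raw signal being 8.17 to 33.0 times the background. In bulk tissue, fewer cells of a type and less RNA per cell cannot be told apart.

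**Figure D1:**
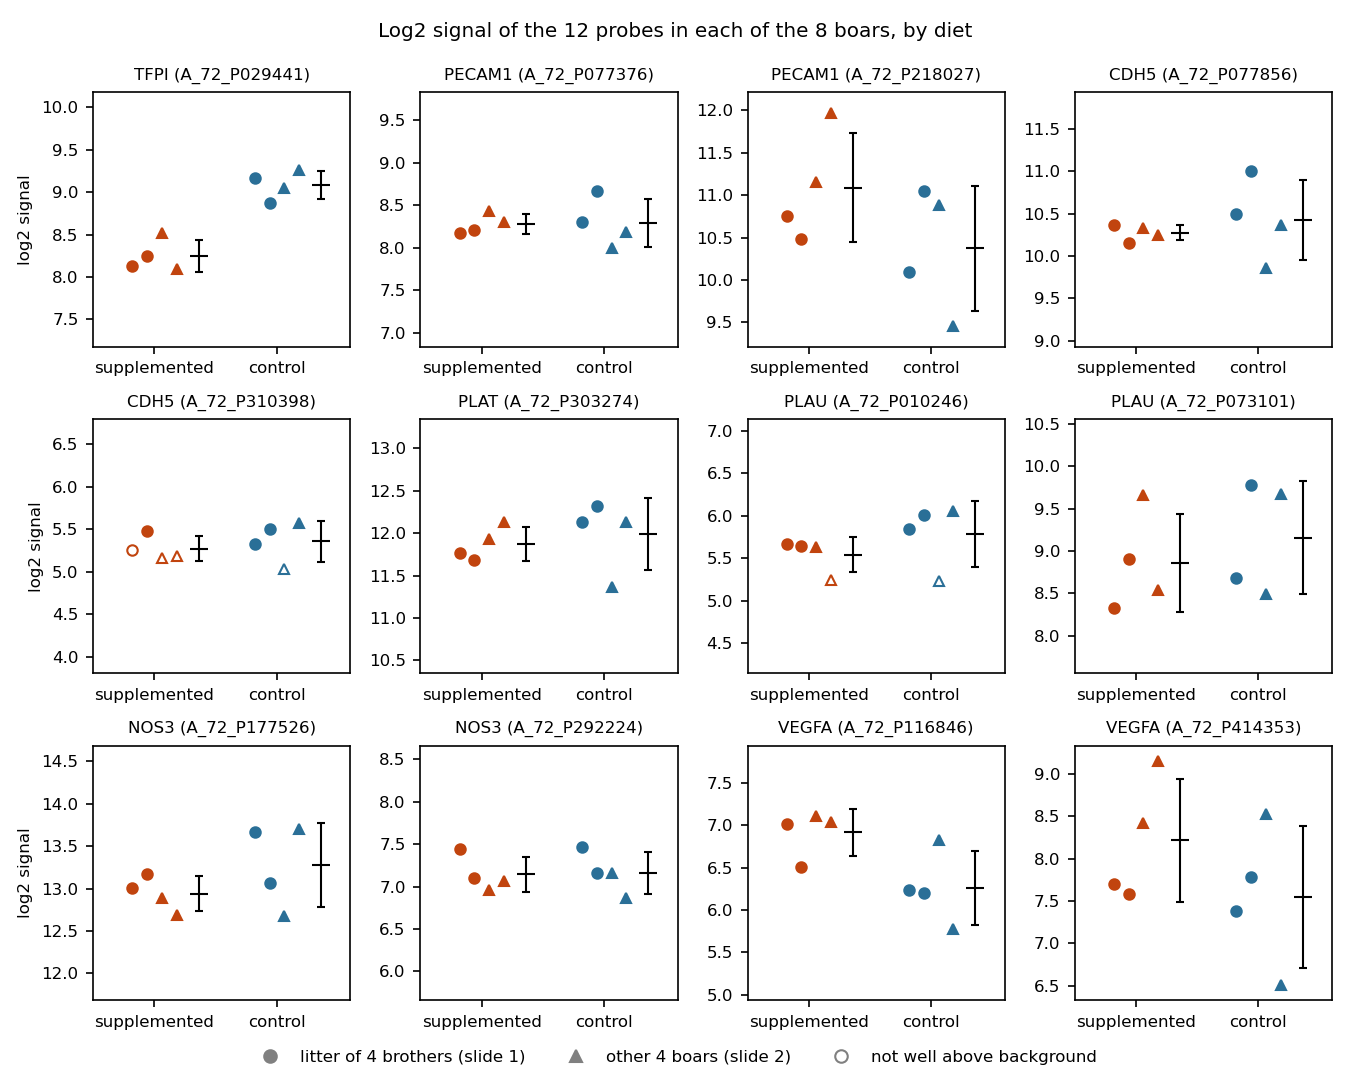
Log2 signal (vertical axis, each panel with its own range of equal span) of the 12 probes in the 8 boars, by diet; circles are the litter of brothers on slide 1, triangles the other 4 boars on slide 2, open symbols are spots not well above background, and the bars give the mean ± SD of 4 boars. TFPI is the panel in which the diets do not overlap, with supplemented boars between 8.09 and 8.51 and control boars between 8.87 and 9.26.

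In none of the other 10 probes did the diet difference pass the test. In limma, 0 of 10 had P under 0.05, where 1.86% of the 36982 present probes did, and 0 of 10 had an adjusted P under 0.05, where 0% did. The ordinary equal-variance test also gave 0 with P under 0.05, where it gave 1.94% of the present probes. Without control boar 3, 3 of the 10 had P under 0.05, where 16.6% of the present probes did. The diet groups overlapped in all 10, against 1.13% of all present probes without overlap. One of them, CDH5 A_72_P310398, passed the presence filter through the control diet alone and is left out of the next counts. Of the other 9, the mean was lower on the supplemented diet in 7 and higher in 2, beside 48.8% lower over the 34194 probes present in both diets. Their median difference was -0.11 (all probes present in both diets 0.0080) and the median size of the difference was 0.24 (all probes present in both diets 0.18). The second VEGFA probe is among the 9 and among the 2 higher, although the list holds its gene by another probe. PECAM1, PLAU and NOS3 have 2 probes each among the 9, all read in the same boars, so the 9 are not independent. Among the 7 lower, PECAM1 A_72_P077376 was at -0.0093 and NOS3 A_72_P292224 at -0.021.

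The junction genes gave intervals around 0. PECAM1 was read by 2 probes that differed from each other. With A_72_P077376 it was 8.18, 8.21, 8.43 and 8.30 in supplemented boars 1 to 4, and 8.31, 8.67, 7.99 and 8.18 in control boars 1 to 4. The supplemented values lay inside the range of the control values. The difference was -0.0093 (SE 0.17, 95% interval -0.39 to 0.37, limma adjusted P = 0.991).

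With the second PECAM1 probe, A_72_P218027, the boars in the same order gave 10.76, 10.48, 11.16 and 11.96 on the supplemented diet and 10.10, 11.05, 10.88 and 9.46 on the control diet. Supplemented boar 4 was the highest and control boar 4 the lowest of the 8, 5.67-fold apart, and the groups overlapped. The difference of 0.72 (SE 0.41, 95% interval -0.20 to 1.63, limma adjusted P = 0.840) lay 0.73 above that of the first probe. It was 0.42 without supplemented boar 4, 0.41 without control boar 4 and 0.47 with the brightness of the array as a covariate. The residual SD of this probe was at the 94.8th percentile of the present probes, that of the TFPI probe at the 17.8th. Nothing is read from the TFPI value, because a choice on the diet contrast favours a small SD within the diets.

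CDH5, the adherens junction protein by which endothelial cells are recognised, was also read by 2 probes. A_72_P077856 gave 10.36, 10.16, 10.33 and 10.25 in the supplemented boars and 10.49, 11.003, 9.86 and 10.37 in the control boars. The supplemented boars lay close together within the control range, which ran from boar 3 up to boar 2. The difference was -0.15 (SE 0.22, 95% interval -0.66 to 0.35, limma adjusted P = 0.870). A_72_P310398 ranged from 5.16 to 5.48 and from 5.03 to 5.57 in the diets, was well above background in only 1 of 4 supplemented and 3 of 4 control boars, and differed by -0.088 (SE 0.16, limma adjusted P = 0.893).

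Neither plasminogen activator passed the test. PLAT was 11.76, 11.68, 11.93 and 12.13 in the supplemented boars and 12.14, 12.32, 11.37 and 12.13 in the control boars. Control boar 3 was the lowest and control boar 2 the highest, so that both ends of the range lay within 1 diet. The difference was -0.11 (SE 0.22, 95% interval -0.61 to 0.38, limma adjusted P = 0.899), and with each boar left out it ran from -0.32 to -0.0023, the ends being without control boars 3 and 2. PLAU was 8.33, 8.91, 9.66 and 8.54 against 8.68, 9.78, 8.49 and 9.67 with A_72_P073101. Each diet held a boar near the top, and the difference was -0.30 (SE 0.37, 95% interval -1.13 to 0.54, limma adjusted P = 0.857). The dim PLAU probe A_72_P010246 ranged from 5.24 to 5.66 and from 5.23 to 6.06, was well above background in 3 of 4 boars of each diet, and differed by -0.24 (SE 0.21, limma adjusted P = 0.840).

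NOS3 also missed the threshold with both probes. A_72_P177526 gave 13.01, 13.17, 12.89 and 12.69 on the supplemented diet and 13.66, 13.06, 12.67 and 13.70 on the control diet. Control boars 1 and 4 were above all others, whereas control boar 3 was the lowest of the 8. The difference was -0.33 (SE 0.24, 95% interval -0.88 to 0.21, limma adjusted P = 0.840). It was -0.53 without control boar 3 and -0.19 without control boar 4. The other NOS3 probe, A_72_P292224, ranged from 6.96 to 7.44 and from 6.86 to 7.47, and its difference was -0.021 (SE 0.17, limma adjusted P = 0.979).

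The mean of VEGFA was higher on the supplemented diet by its listed probe, opposite in sign to TFPI. A_72_P116846 gave 7.02, 6.51, 7.11 and 7.04 in the supplemented boars and 6.24, 6.20, 6.83 and 5.77 in the control boars. Control boar 3 lay above supplemented boar 2, so that the groups overlapped. The difference was 0.66, or 1.58-fold, and the spot of supplemented boar 1 carried the scanner's mark for an uneven spot. The second VEGFA probe, A_72_P414353, which was not in the list, gave 7.70, 7.58, 8.42 and 9.15 against 7.39, 7.78, 8.53 and 6.51. It reads the same gene in the same boars as the listed probe, so its direction is not independent of that choice. Its difference was of the same size, 0.66, but the boars spread 6.22-fold between supplemented boar 4 and control boar 4, with an SE of 0.46, a 95% interval of -0.36 to 1.69 and a limma adjusted P of 0.840. It was 0.32 without control boar 4, 0.35 without supplemented boar 4 and 0.40 with the brightness of the array as a covariate. This listed VEGFA difference of 0.66 stands beside that of PECAM1 A_72_P218027, 0.72, which the list does not hold. The study chose probes by P-value and not by the size of the difference. The residual SD was 0.36 for the listed VEGFA probe, a value that this choice favours, and 0.69 for the PECAM1 probe.

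**Figure D2:**
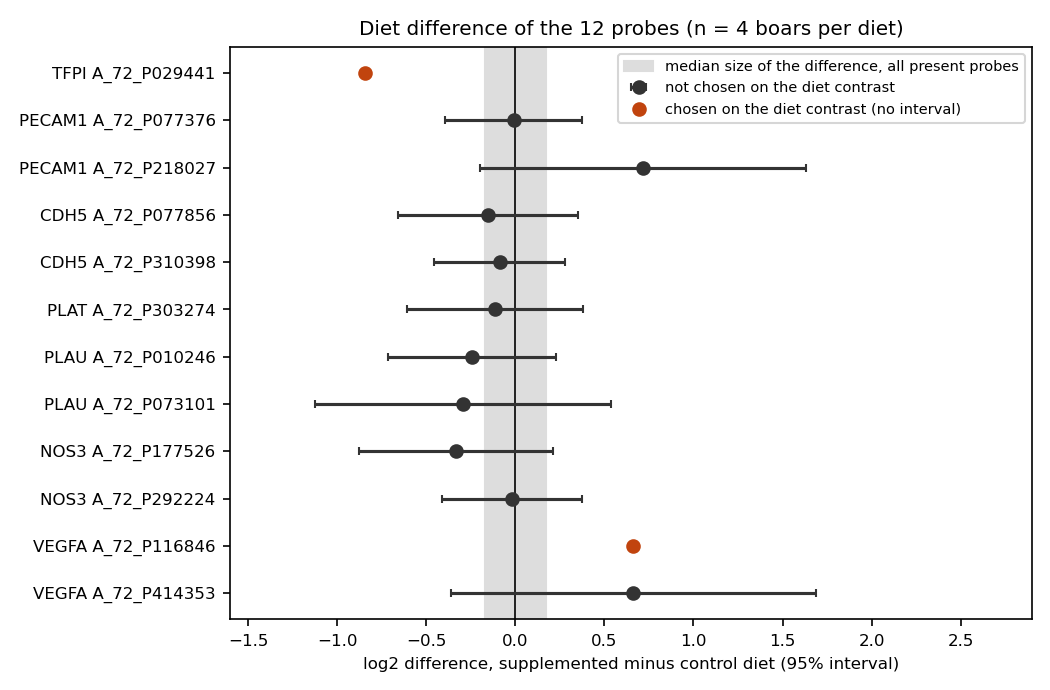
Diet difference of the 12 probes on the log2 scale (horizontal axis, supplemented minus control diet) with 95% intervals from limma, n = 4 boars per diet; the 2 probes chosen on this contrast are orange and drawn without an interval, and the grey band is the median size of the difference over all present probes, 0.17. The intervals of all 10 other probes include 0.

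The values were also compared boar by boar. Each probe was centred on its mean over the 8 boars, and the root-mean-square difference between the centred values of 2 probes was taken as their distance. This distance is not scaled by spread, so it depends on how much each probe varies as well as on the order of the boars. From TFPI, the nearest member was NOS3 A_72_P177526 at 0.39, followed by PLAU A_72_P010246 at 0.40 and CDH5 A_72_P310398 at 0.44. These PLAU and CDH5 probes were dim, at 1.23 to 3.5 and 1.43 to 2.70 times the background. The CDH5 probe had also passed the presence filter through the control diet alone, so nothing is read from its place here. The median distance from TFPI over 2906 named probes was 0.51. PECAM1 lay at 0.49 and 1.05, PLAT at 0.49, CDH5 A_72_P077856 at 0.50, NOS3 A_72_P292224 at 0.51, PLAU A_72_P073101 at 0.57 and VEGFA at 0.84 and 1.06. No correlation with TFPI was computed because its values fall into 2 separate clusters of 4 boars, the diets. TFPI was chosen for that gap, so a large distance to any probe without a diet difference is built in, and these distances are a description.

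Among the probes not chosen on diet, PECAM1 A_72_P077376 and CDH5 A_72_P077856 were 0.16 apart, CDH5 A_72_P077856 and PLAT 0.17, CDH5 A_72_P310398 and PLAU A_72_P010246 0.17, and PECAM1 A_72_P077376 and PLAT 0.19. Probes that vary little lie close to each other by this distance whatever the order of their boars, so these values are a description too. In PECAM1 A_72_P077376, CDH5 A_72_P077856 and PLAT the highest boar was control boar 2 and the lowest control boar 3, whereas CDH5 A_72_P310398 and PLAU A_72_P010246 were highest in control boar 4. Over all 12 probes control boar 2 was the highest of the 8 in 4 and control boar 3 the lowest in 6. Control boar 4 was the highest in 4 and the lowest in another 4. The matching shares over all present probes were not computed, so nothing is read from these counts. The limma array weights, fitted over all present probes, were 0.32, 0.48 and 0.39 for control boars 3 and 4 and supplemented boar 4. That of control boar 2 was 0.85, and the other boars had 1.02 to 2.95. The endothelial marker list without PECAM1 and CDH5 (18 probes of 15 genes) had its mean at 0.19 in control boar 2 and at -0.12 in control boar 3, with the supplemented boars between -0.082 and 0.041. Markers of pericytes and smooth muscle were also highest in control boar 2, at 0.47, as were those of macrophages, at 0.70. Their part in the result was not tested.

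A second pair ran differently. PECAM1 A_72_P218027 and VEGFA A_72_P414353 were 0.25 apart, highest in supplemented boar 4 and lowest in control boar 4. For PECAM1 this was far from its own other probe, at 0.67, a distance that also reflects the wider spread of A_72_P218027. The 2 PECAM1 probes did not order the boars alike, as A_72_P077376 was highest in control boar 2 and lowest in control boar 3. The 2 CDH5 probes were 0.25 apart.

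**Figure D3:**
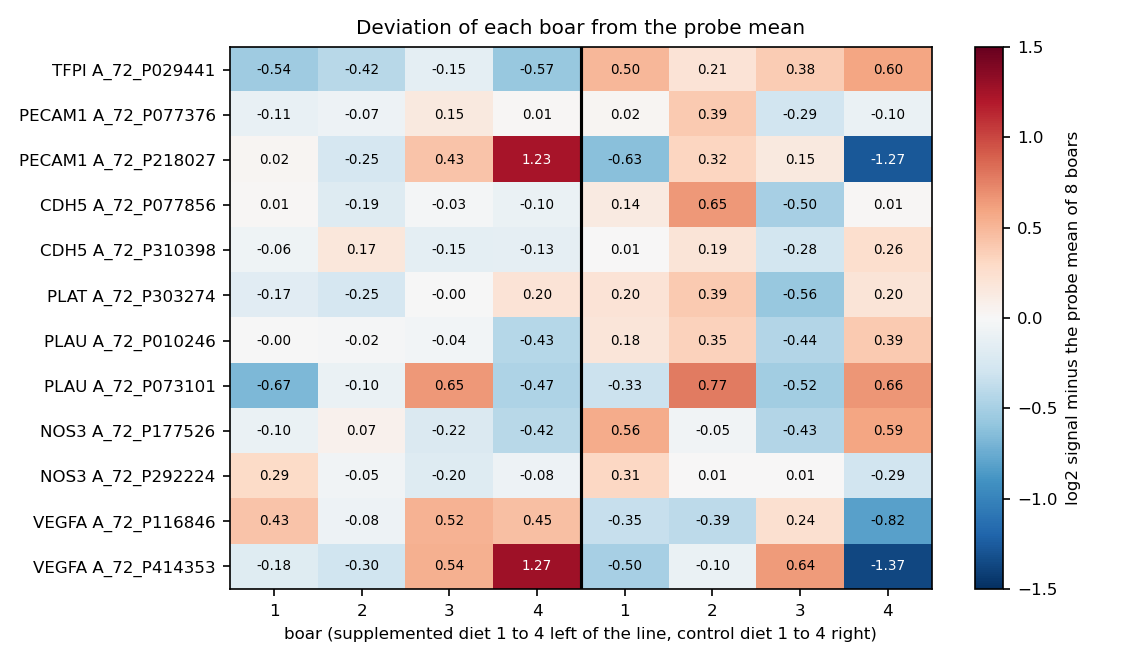
Log2 signal of each of the 12 probes in each boar minus the probe's mean over the 8 boars (colour and printed value), supplemented boars left and control boars right of the line. TFPI is negative in all 4 supplemented and positive in all 4 control boars, whereas PECAM1 A_72_P218027 and VEGFA A_72_P414353 have boar 4 of each diet at their ends.

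Among the brothers, and again among the other 4 boars, 2 supplemented boars were set against 2 control boars. The TFPI difference was -0.83 among the brothers and -0.85 among the other 4 boars. Its non-overlap over all 8 boars fixes that both are negative, so they are no independent support. PECAM1 A_72_P077376 differed by -0.30 among the brothers and by 0.28 among the others, without overlap in either, a reversal shown by 3.75% of all present probes. PLAT gave -0.51 and 0.28, and CDH5 A_72_P077856 gave -0.49 and 0.18. PECAM1 A_72_P218027 gave 0.044 and 1.39 and VEGFA A_72_P414353 gave 0.059 and 1.27. Of these reversals and gaps none passed the test of the difference itself: for the interaction of diet with slide (brothers or other boars) in limma, 0 of 12 probes had P under 0.05 (background 2%), the smallest P being that of PLAT with a difference of -0.79, and every adjusted P rounded to 1. Without control boar 3, 2 probes had P under 0.05 (background 15.8%), and without control boar 4, 2 did (background 4.11%).

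The contrast of the brothers with the other 4 boars, which had no part in the choice of the genes, was tested for all 12 probes. In limma with diet as a term, 0 of 12 had P under 0.05, against 8.11% of the present probes. TFPI was 8.60 ± 0.50 in the brothers and 8.73 ± 0.53 in the other boars, a difference of -0.13 (SE 0.15, adjusted P = 0.811). The smallest P was that of NOS3 A_72_P292224, with a difference of 0.28 (SE 0.15, limma adjusted P = 0.647). The difference of VEGFA A_72_P414353 was -0.54 (adjusted P = 0.727). The count depended on control boar 4: without it, 4 of 12 probes had P under 0.05, where 25.7% of the present probes did.

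**Figure D4:**
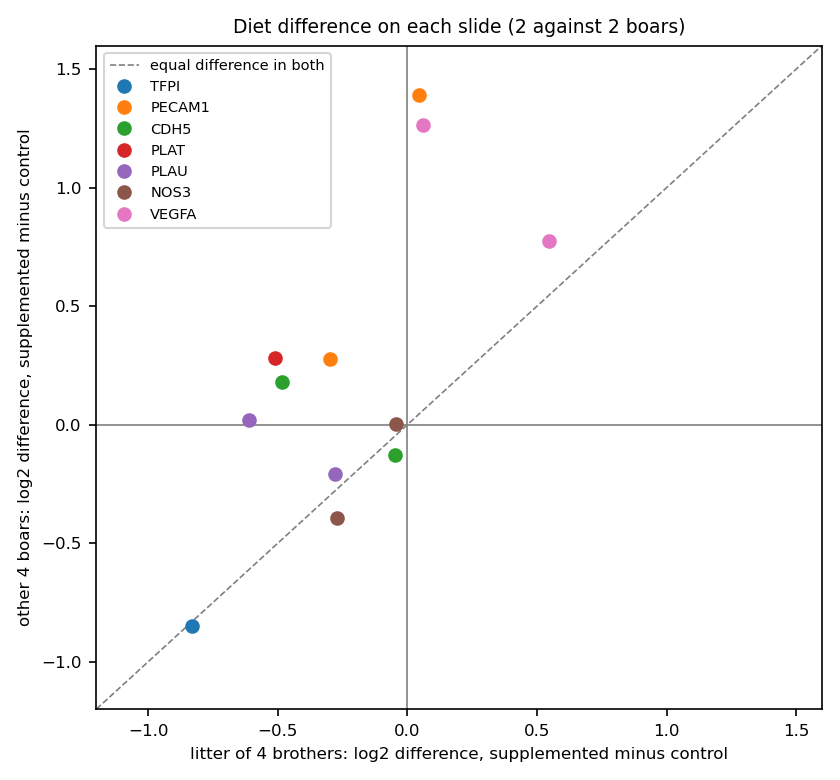
Log2 diet difference (supplemented minus control) of the 12 probes among the 4 brothers on slide 1 (horizontal axis) and among the other 4 boars on slide 2 (vertical axis), each from 2 against 2 boars; the dashed line marks equal differences. TFPI lies on the line at about -0.83 and -0.85, whereas 1 probe of PECAM1 and 1 of VEGFA are near 0 among the brothers and above 1.2 among the others.

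The named probes of other genes nearest to TFPI by the same distance were GPD1L (A_72_P139871, 0.20), a glycerol-3-phosphate dehydrogenase-like protein, ITGAV (A_72_P051521, 0.20), the integrin alpha V chain, AIG1 (A_72_P127406, 0.21), SFXN1 (A_72_P386638, 0.21), a mitochondrial serine carrier, and TOR1A (A_72_P311148, 0.22), an ATPase of the endoplasmic reticulum. All 5 stand in the study's diet list, so that their diet differences, from -0.75 to -0.58, are a description. Only probes with a gene name were searched, and the list itself names 480 of these 3064. Listed probes were thereby favoured, and nothing is read from all 5 being in the list. Of the 5, TOR1A was the only one whose diet groups did not overlap.

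A wider list of 110 genes of the vessel wall, clotting, fibrinolysis and the VEGF and nitric oxide pathways was read from the same fit. A probe was found for 44 genes and was present for 42, giving 51 present probes, of which those of KLF2, A2M and ARG1 were in the study's list. These 3 had been chosen on the diets and are left out of the counts. In limma 1 of the other 48 had P under 0.05 (background 1.86%) and 0 had an adjusted P under 0.05, and the ordinary equal-variance test gave 0 with P under 0.05 (background 1.94%). Without control boar 3, 4 of 48 had P under 0.05 (background 16.6%), and without control boar 4, 0 had (background 0.917%). Without supplemented boar 3 or control boar 2 it was 2 (background 2.03% and 3.28%). Of the 44 that were present in both diets, 22 were lower and 22 higher on the supplemented diet, with a median difference of -0.0054.

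The probe with P under 0.05 was VCAM1, a leukocyte adhesion receptor that inflamed endothelium displays. A_72_P088576 gave 10.36, 10.86, 11.14 and 9.16 in supplemented boars 1 to 4, and 11.29, 12.23, 10.94 and 11.95 in control boars 1 to 4. Supplemented boar 4 was far the lowest, and supplemented boar 3 lay above control boar 3. The means were 10.38 ± 0.88 and 11.60 ± 0.59 (SD, n = 4 each), a 2.33-fold lower signal on the supplemented diet with a difference of -1.22 (SE 0.44, limma adjusted P = 0.840). It was -0.81 without supplemented boar 4 and -1.48 without supplemented boar 3. ARG1, which is in the study's list, is an arginase that competes with NOS3 for arginine. Its difference was -0.68, and it was well above background in 2 of 4 supplemented and 4 of 4 control boars.

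Among the clotting and fibrinolysis genes outside the study's list, no probe had P under 0.05. The counts that follow leave out the listed probes and those present in 1 diet only. Of the clotting factors, 8 probes were lower and 3 higher on the supplemented diet (median -0.16), and F12, the contact factor with the brightest probe among them (A_72_P165791), differed by 0.077. Of the other clotting inhibitors, 2 probes were lower and 1 higher (median -0.094), the brightest being SERPINE2 (A_72_P223262), the thrombin-inhibiting protease nexin, at -0.17 (limma adjusted P = 0.846). Of the fibrinolysis probes 1 was lower and 2 higher (median 0.19), with ANXA2 (A_72_P177456), the annexin that gathers PLAT and plasminogen on the cell surface, at 0.19.

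Of the endothelial markers and receptors, 5 probes were lower and 11 higher, with a median of 0.045. The brightest, CAV1 (A_72_P165326), the caveolin that coats the flask-shaped pits of endothelium, differed by 0.079, a direction that turned among the brothers alone, to -0.32. In the VEGF, angiopoietin and nitric oxide group 6 were lower and 5 higher (median -0.021), with RAMP2 (A_72_P232667), the partner of the adrenomedullin receptor, at 0.38.

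**Figure D5:**
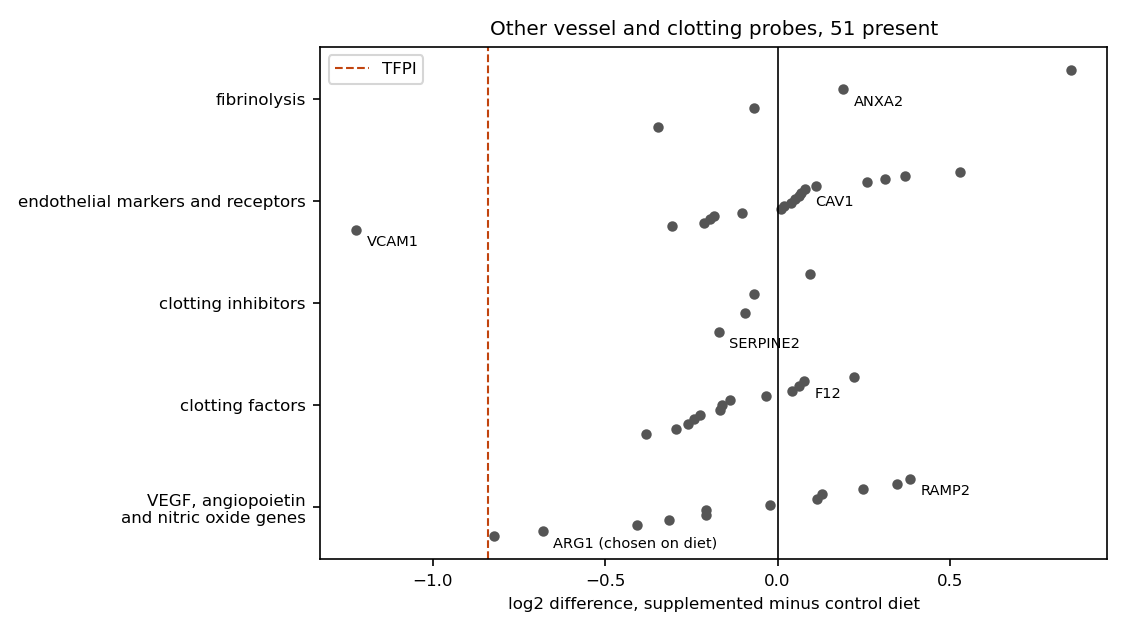
Log2 diet difference (horizontal axis, supplemented minus control) of the 51 present probes of other vessel and clotting genes, 1 point a probe, in 5 rows by role, the 3 probes of the study's list included; the dashed line is TFPI at -0.84. VCAM1, at -1.22, is the only probe below TFPI.

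Markers of other cells are given for the same boars as means of centred log2 values. Platelet markers (2 of 2 probes present) ranged from -0.10 to 0.19 on the supplemented and from -0.24 to 0.24 on the control diet, and the red blood cell marker (1 of 1, HBE1) from -0.14 to 0.37 and from -0.22 to 0.17. Macrophage markers (7 of 8) ranged from -0.05 to 0.37 and from -0.45 to 0.70. Markers of lymphatic endothelium (2 of 2) were 0.03 to 0.75 on the supplemented and -0.51 to 0.01 on the control diet. Pericyte and smooth muscle markers (9 of 9) ranged from -0.23 to 0.05 and from -0.20 to 0.47, Sertoli cell markers (11 of 11) from -0.20 to 0.09 and from -0.17 to 0.13, and germ cell markers (6 of 6) from -0.22 to 0.03 and from -0.11 to 0.33. Leydig cell markers (11 of 11) ranged from -1.01 to 0.91 and from -0.12 to 0.31, and duct epithelium markers (5 of 5) from -1.17 to 0.58 and from -0.63 to 0.96. Their part in the TFPI difference was not tested.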

How the data were processed

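Testis RNA of 8 boars was hybridized to one-colour Agilent porcine arrays. Per the file headers, each deposited scanner file gives spot intensity values from Feature Extraction, without normalization between arrays. A deposited table of log2 values matched quantile-normalized log2 median signals and served as an alternative. As in the study's methods, the median spot signal without background subtraction was the raw value, which understates changes of dim probes. Log2 signals of the spots that are not controls were quantile-normalized and spots of a probe averaged. A probe was present with a signal above 25 and well above background in 2 or more of the 4 boars of a diet, as for 36982 probes.

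Diets (supplemented minus control), the brothers and the other 4 boars with diet as a term, and the interaction of the 2 contrasts were compared two-sided in R 4.3.3 with lmFit and eBayes of limma 3.58.1 and Benjamini-Hochberg adjustment over all present probes. Intervals are 95% confidence intervals. The number of arrays limits the precision. The code was tested on simulated data. Python 3.11.15 with matplotlib 3.10.9 drew the figures.

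Of 3239 probes with a RefSeq accession, 2628 matched the RefSeq gene table (assembly Sscrofa11.1), used for names only. The array's build is not given in the sources used here and no coordinates were used. The study's supplementary list added names, 3064 probes being named in all. It was selected on these boars. Probes of a gene were reported singly. Target sequences of the 2 listed probes were copied from that list.

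The genes and all lists were chosen with earlier results of these data known. Named were all probes of the 9 genes, the probes of the wider list with P under 0.05, the brightest present probe of each of its groups, and the 5 named probes nearest to TFPI. Alternatives were background-corrected signals (the processed signal, and normexp with an offset of 50), scaling to the 75th percentile, other presence filters, outlier spots removed, the ordinary equal-variance test, limma with trend and robust variances or array weights, the deposited values, brothers or other boars as a block, each of these sets alone and each boar left out. Array brightness as a covariate was chosen after seeing the data. Sperm RNA was not analysed here.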

Additional observations from a re-analysis of the deposited data

Results flagged for a closer look

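In 44 groups of 4 boars, the highest or lowest boar was set against the range of its group by Dixon's criterion. It stood apart in 4, where chance gives about 2.2. The macrophage markers of control boar 2 were at 0.697, with the other control boars between -0.452 and -0.320. The lymphatic endothelium markers of supplemented boar 4 were at 0.751, with the other supplemented boars between 0.026 and 0.052. PLAU A_72_P010246 was at 5.241 in supplemented boar 4, not well above background there, with the other supplemented boars between 5.631 and 5.665. VEGFA A_72_P116846 was at 6.509 in supplemented boar 2, with the other supplemented boars between 7.016 and 7.107. The causes were not tested.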

How the results depend on the processing

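The labels give no replicate numbers shared between diets, so boars were not paired one with one. According to the study, litter mates were divided at random between the diets. With the brothers and the other 4 boars as 2 blocks, no call for diet changed. The TFPI difference ran from -0.88 to -0.73 under the other settings and from -0.93 to -0.78 with each boar left out. The non-overlap of its diets fixes the sign with each boar left out, and in the brothers or the other 4 boars alone. The other settings re-use the arrays and the contrast that chose the probe, so neither range is independent support. No setting gave one of the other 10 probes an adjusted P under 0.05 for diet. With P under 0.05, the count of 0 of 10 became 2 with array weights (NOS3 A_72_P177526 and PLAT; background 15.8%), 1 among the brothers alone (PLAT; background 6.44%) and 0 to 3 with each boar left out, 3 without control boar 3 (PLAU A_72_P010246, NOS3 A_72_P177526 and VEGFA A_72_P414353; background 16.6%). The wider count of 1 of 48 became 2 with the median signal scaled to the 75th percentile (background 1.58%), 0 with the ordinary equal-variance test (background 1.94%), 8 with array weights, 5 among the brothers and 0 to 4 with each boar left out. For the brothers against the other 4 boars, array weights gave 1 (VEGFA A_72_P414353; background 20.4%) and leaving out a boar 0 to 4. For the interaction, leaving out a boar gave 0 to 2. Directions turned for diet differences of PECAM1 A_72_P077376 (0.0007 with the processed signal, 0.0057 with the brightness covariate, 0.28 among the other 4 boars), and among the other 4 boars also for CDH5 A_72_P077856 (0.18), PLAT (0.28), PLAU A_72_P073101 (0.021), NOS3 A_72_P292224 (0.002) and F12 (-0.17). CAV1 turned with array weights (-0.082) and among the brothers (-0.32). The difference of the brothers from the others turned for TFPI with the processed signal (0.042) and for CDH5 A_72_P310398 with the median signal scaled to the 75th percentile (-0.056). With each boar left out, the sign also varied for diet differences of PECAM1 A_72_P077376 (-0.11 to 0.12), CDH5 A_72_P077856 (-0.34 to 0.038), NOS3 A_72_P292224 (-0.12 to 0.080), CAV1 (-0.21 to 0.35) and F12 (-0.019 to 0.22), and for brothers against others of PECAM1 A_72_P077376 (-0.015 to 0.20) and A_72_P218027 (-0.69 to 0.025), PLAT (-0.15 to 0.20) and PLAU A_72_P073101 (-0.46 to 0.12). The PLAU A_72_P010246 difference reached -0.70 with the processed signal. ARG1 ran from -1.66 with the processed signal to -0.37 with normexp. The causes were not tested.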
